A study of Mus musculus with 6 samples.

Results

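The gene set described here holds 44 genes of ribosome biogenesis and the nucleolus, taken from a fixed list of symbols. That list was chosen with earlier results of these data known, so its agreement in direction is a description and not independent evidence. Of the 44 genes, 43 were measured by a probe set with exactly 1 gene symbol, among 18193 genes measured in all. Mrto4, a factor of large subunit assembly, had only a probe set that also carries the names of related sequences, and it was not analysed here. RNA came from Ba/F3, a mouse pro-B cell line whose growth depends on interleukin-3, into which a retroviral Tet-On construct for the SPAG9-JAK2 fusion protein had been introduced. Induced cells (3 arrays) had doxycycline at 500 ng/ml, and uninduced cells (3 arrays) carried the same construct with no doxycycline. RNA was taken after 48 hours and hybridised to Affymetrix 3′ expression arrays. No array held doxycycline-treated cells without the fusion, and the labels do not say whether the line is 1 clone or whether interleukin-3 was in the medium.

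Ribosomes are built in the nucleolus, where RNA polymerase I transcribes the long precursor of the ribosomal RNAs. Small nucleolar ribonucleoproteins (snoRNPs) guide chemical marks onto that precursor, and large assemblies of factors fold and cut it into the RNAs of the small (40S) and large (60S) subunits. The genes of these factors are widely regulated together with cell growth, and MYC is the best known of their regulators.

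With all 6 arrays compared, 42 of the 43 genes had a higher mean in induced cells, where 44.1% of all genes did. The median log2 difference of the 43 was 0.55, and that of all genes was -0.06. Differences are of log2(signal + 16) throughout, where the signal is the deposited intensity on a linear scale. The comparison is limma's test with Benjamini-Hochberg adjustment over all 18193 genes and a threshold of 0.05. None of the 43 passed it (0 higher and 0 lower), and 15 had an unadjusted p under 0.05, all of them higher. Over all genes 0.115% passed as higher and 0.0715% as lower, and at an unadjusted p under 0.05 7.14% were higher and 10.3% lower. The smallest adjusted p among the 43 was 0.144, that of Bop1. In 17 of the 43 every induced array lay above every uninduced array, against 10.7% of all genes, and the opposite order occurred in 0, against 13.4%. With each array centred on its median that count was 33 in place of 17, against 14.4% of all genes so centred.

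The uninduced arrays did not form 1 level for these genes. Uninduced replicate 1 lay above the mean of uninduced replicates 2 and 3 in all 43 genes, by a median of 0.65. In 40 of the 43 it was nearer to the induced mean than to the mean of uninduced replicates 2 and 3, against 55.6% of all genes. In 26 it reached at least the lowest induced array, and in 6 of these, Nop58, Npm1, Wdr43, Heatr1, Nop14 and Rrp1b, it was above all 3 induced arrays. Uninduced replicates 2 and 3 were close to each other, with a median distance of 0.09 and were less than 0.25 apart in 39 of the 43. Accordingly the SD (n = 3) of the uninduced group had a median of 0.38 over the genes and that of the induced group 0.13.

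**Figure D1:**
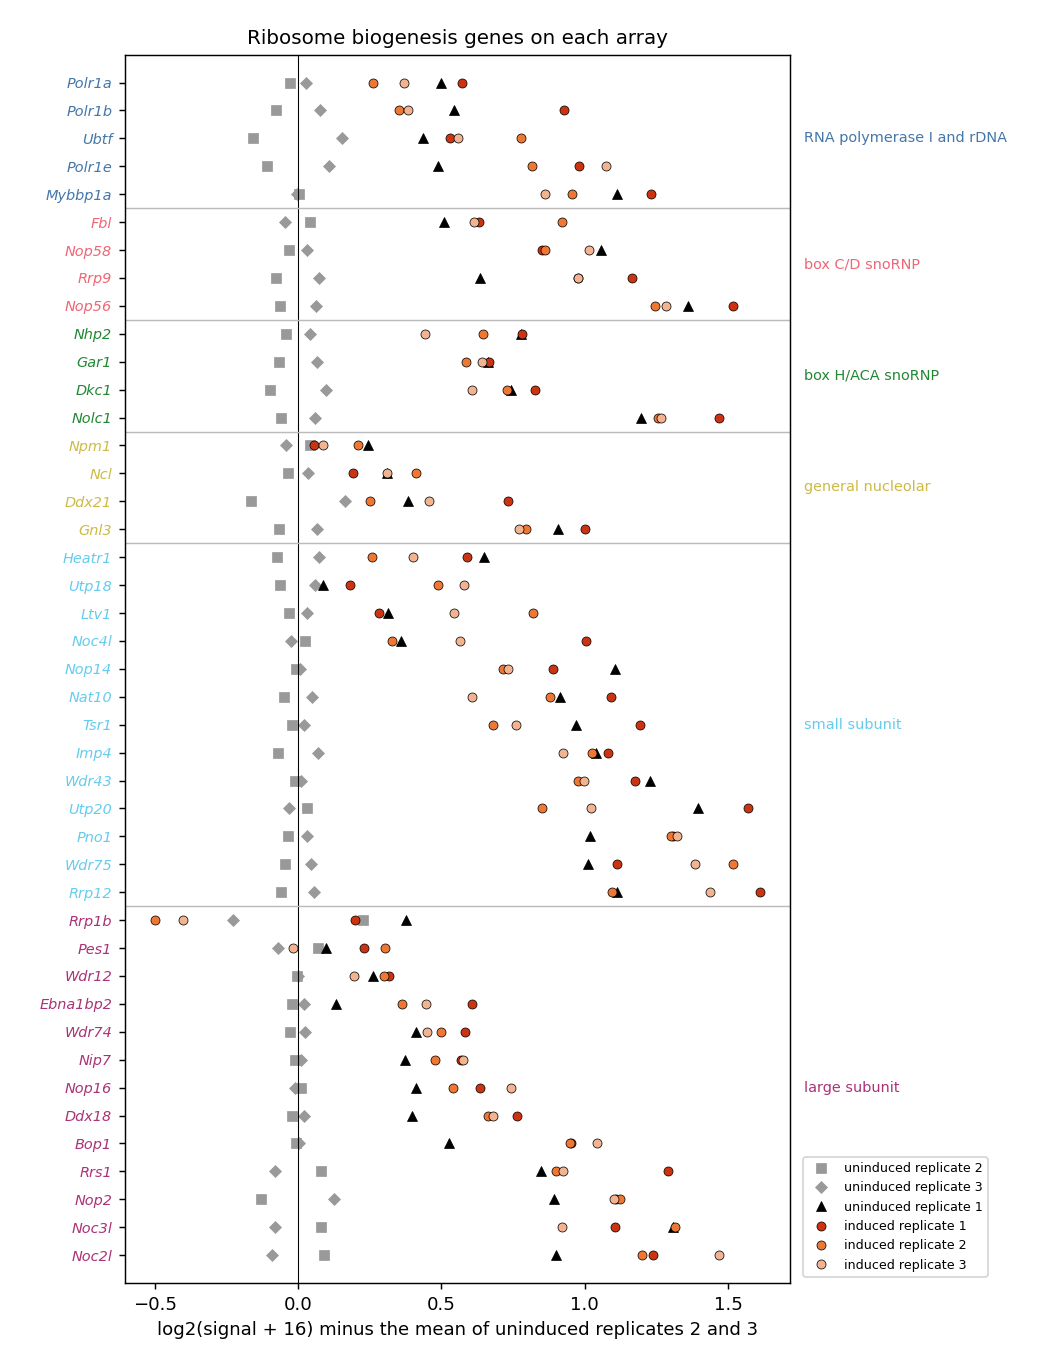
Each row is 1 of the 43 genes, grouped by role, and the x axis gives each array's log2(signal + 16) minus the mean of uninduced replicates 2 and 3. The black triangles of uninduced replicate 1 lie to the right of 0 in all 43 rows, by a median of 0.65, and in 6 rows they lie to the right of the circles of all 3 induced arrays.

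Uninduced replicate 1 is therefore given apart from the others. Against uninduced replicates 2 and 3 alone, the median difference of the 43 genes was 0.72, and that of all genes was -0.02. In this fit 19 of the 43 genes (44.2%) passed as higher and 0 as lower in limma, where 3.22% of all genes passed as higher and 4.77% as lower. The difference was at least 1 in 14 genes. In 41 of the 43 all induced arrays lay above both of these uninduced arrays, against 21.3% of all genes, and Pes1 and Rrp1b were the exceptions. The opposite order occurred in 0 of the 43, against 24% of all genes. This fit leaves out an array already known from these data to differ, so its p-values describe 3 arrays against 2 and are not independent evidence.

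The difference between the groups varied with the replicate number. In the arrays numbered 1 the median difference between induced and uninduced cells was 0.13, with 34 of 43 genes positive. Between the replicate 2 arrays it was 0.82, and between the replicate 3 arrays 0.66, with 42 of 43 positive in each. Induced replicate 1 was the highest induced array in 26 of the 43. With both replicate 1 arrays left out the median difference was 0.72 and 17 of the 43 passed as higher and 0 as lower in limma, against 2.88% and 5.24% of all genes. Of these 17, 16 were among the 19 above, and the other was Utp20 (0.94 ± 0.13, SE, adjusted p of 0.0454 in limma). With replicate 1 of both groups as a batch, or with the replicate number as a block, 0 of the 43 passed in limma. In these fits 27 and 18 of them were higher at an unadjusted p under 0.05, against 9.29% and 7.01% of all genes.

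**Figure D2:**
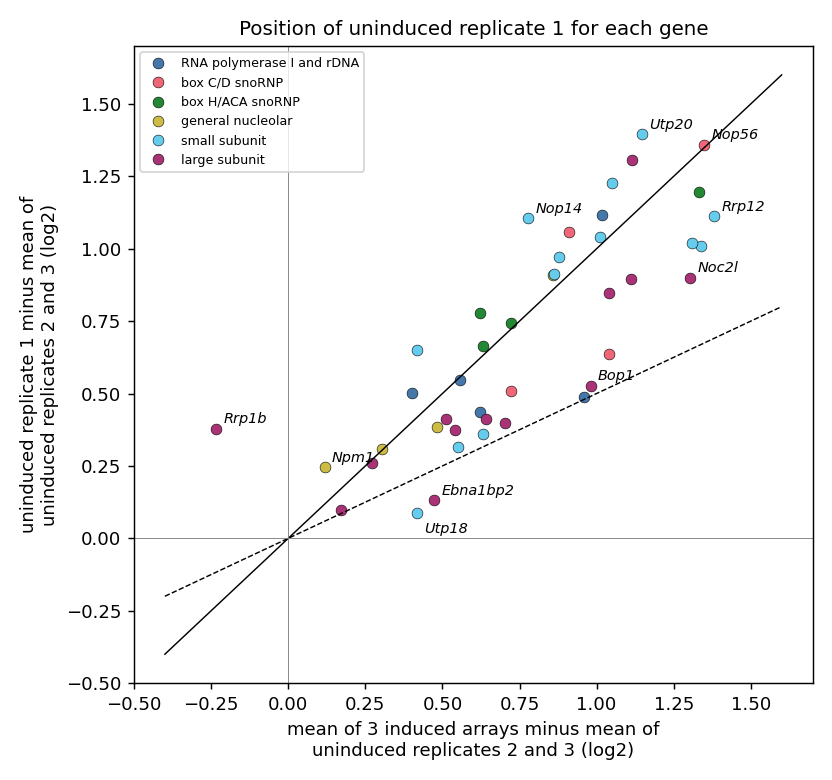
Each point is 1 of the 43 genes, coloured by role. The x axis is the mean of the 3 induced arrays and the y axis is uninduced replicate 1, both minus the mean of uninduced replicates 2 and 3 on the log2 scale. The solid line marks equality with the induced mean and the dashed line the midpoint, and 40 of the 43 points lie on the induced side of that midpoint. Utp18 and Ebna1bp2 fall below the dashed line, and Rrp1b has the opposite sign on the x axis.

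Some measures of the arrays moved with this pattern, and their part in it was not tested. Uninduced replicate 1 had the highest median signal, 63.6 against 46.2 to 55.0 on the other 5 arrays, although every array had been scaled to the same trimmed mean. Its correlation over all genes was 0.971 with induced replicate 1 and 0.963 with uninduced replicate 2. Among markers of the pro-B line, 7 of the 16 measured stood above the 90th percentile of 26 liver and brain genes used as a background (5.96). They were Ptprc, Il3ra, Csf2rb, Csf2rb2, Cd79b, Pax5 and Igll1. Pax5 and Igll1 stood above it by their means only, with log2 values of 5.32 to 7.13 and 4.91 to 7.16. Ebf1, Vpreb1, Cd79a, Rag1, Rag2, Il7r, Blnk, Spib and Cd24a did not stand above it. The summed signal of all 16 was 29122 to 45329 in induced and 26683 to 39235 in uninduced cells. The summed signal of 13 granulocyte and monocyte markers was 673 to 1436 in induced and 1400 to 3606 in uninduced cells, with uninduced replicate 1 the lowest of the latter. That of 7 T cell markers was 228 to 728 and 225 to 432, of 6 erythroid markers 6550 to 8656 and 4322 to 4849, and of 8 mast cell and basophil markers 5264 to 8106 and 7503 to 11785. Uninduced replicate 1 was also the lowest uninduced array for the pro-B, T cell, and mast cell and basophil markers. For the erythroid markers it was the highest. Of the T cell, erythroid, and mast cell and basophil markers only 2 of 7, 3 of 6 and 3 of 8 stood above the background percentile. A sum follows its brightest genes and is no measure of cell types. These were Csf2rb, Csf2rb2 and Ptprc in the pro-B list, and Klf1 and Gata1 in the erythroid list (log2 of 10.92 to 12.14 and 10.98 to 11.89). In the mast cell and basophil list it was Gata2 (12.31 to 13.49). The mouse probe sets named Jak2 and Spag9 gave differences of -0.54 ± 0.41 (SE) and -0.92 ± 0.33 (SE). Their adjusted p were 0.542 and 0.234 in limma. The log2 values of Jak2 were at most 10.778 in induced cells, 10.218 on uninduced replicate 1, and 11.755 and 11.597 on the others. Those of Spag9 were at most 11.126 in induced cells, 11.128 on uninduced replicate 1, and 12.204 and 12.191 on the others. Both genes were thus lower on every induced array than on uninduced replicates 2 and 3, and the cause was not tested. The induction of the fusion itself is not visible in these probe sets. All 43 genes were above the background percentile on every array.

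The promoters of these genes were searched for 3 short motifs, because many of the genes moved together. RefSeq windows of the GRCm38.p6 build, from 250 bases before to 50 after a gene's start, were matched by symbol for 39 of the 44 genes (48 windows). The E-box CACGTG, which MYC and MAX bind and which reads the same on either strand, occurred in 10 of the 39 genes (25.6%), and in 8.91% of 17491 protein-coding genes. These 10 were Imp4, Nop2, Ltv1, Utp20, Pes1, Pno1, Mybbp1a, Tsr1, Utp18 and Wdr43. The STAT motif TTCNNNGAA, searched on both strands, occurred in 3 of the 39 (7.69%: Nop58, Polr1b and Noc4l) and in 8.92% of all. The TATA motif TATAAA, on both strands, occurred in 2 (5.13%) and in 14.8% of all. The windows of the set had a median GC content of 58.0%, against 56.3% for all. A match is a run of letters and not a measured binding site.

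Of the windows, 4 with an E-box and 1 with the STAT motif are shown, each 5′ to 3′ on the gene's strand with the motif in capitals. They were picked from genes that passed the test without uninduced replicate 1, and they show that the E-box stands on either side of the start. Ltv1, Utp20, Pes1, Tsr1 and Utp18 also have an E-box and did not pass it.
Pno1: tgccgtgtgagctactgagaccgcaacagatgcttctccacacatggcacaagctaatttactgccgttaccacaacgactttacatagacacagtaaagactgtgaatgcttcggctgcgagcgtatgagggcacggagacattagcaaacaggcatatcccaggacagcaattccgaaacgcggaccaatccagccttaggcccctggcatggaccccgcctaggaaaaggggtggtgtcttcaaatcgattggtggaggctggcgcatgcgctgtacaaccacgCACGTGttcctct
Nop2: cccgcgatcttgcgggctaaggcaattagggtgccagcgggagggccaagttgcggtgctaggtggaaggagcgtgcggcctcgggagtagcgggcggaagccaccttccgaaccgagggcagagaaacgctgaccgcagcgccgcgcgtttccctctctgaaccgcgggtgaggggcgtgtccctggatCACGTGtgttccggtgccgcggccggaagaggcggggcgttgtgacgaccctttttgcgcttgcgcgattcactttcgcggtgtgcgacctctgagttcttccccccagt
Imp4: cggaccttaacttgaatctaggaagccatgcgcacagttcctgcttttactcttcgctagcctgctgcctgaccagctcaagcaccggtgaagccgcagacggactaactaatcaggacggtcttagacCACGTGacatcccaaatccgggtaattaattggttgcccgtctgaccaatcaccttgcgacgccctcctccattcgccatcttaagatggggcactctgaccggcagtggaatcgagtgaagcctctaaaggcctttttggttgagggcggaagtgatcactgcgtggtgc
Mybbp1a: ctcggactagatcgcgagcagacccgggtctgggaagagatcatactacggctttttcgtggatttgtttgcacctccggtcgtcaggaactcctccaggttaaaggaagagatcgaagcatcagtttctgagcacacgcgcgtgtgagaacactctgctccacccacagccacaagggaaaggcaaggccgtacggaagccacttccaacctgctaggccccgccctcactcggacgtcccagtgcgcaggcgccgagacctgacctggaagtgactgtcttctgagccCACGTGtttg
Nop58: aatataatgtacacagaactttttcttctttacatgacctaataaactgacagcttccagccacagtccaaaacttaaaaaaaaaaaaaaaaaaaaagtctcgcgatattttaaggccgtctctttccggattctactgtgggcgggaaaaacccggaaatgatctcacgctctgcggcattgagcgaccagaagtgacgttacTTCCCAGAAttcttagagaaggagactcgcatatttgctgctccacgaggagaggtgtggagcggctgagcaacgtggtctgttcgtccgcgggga
The Pno1 window is chr11:17211540-17211839 on the minus strand, and its E-box begins 37 bases after the start. The other windows are on the plus strand. That of Nop2 is chr6:125131633-125131932, with the E-box beginning 60 bases before the start, and that of Imp4 is chr1:34439579-34439878, with the E-box 121 bases before it. That of Mybbp1a is chr11:72441077-72441376, with the E-box 40 bases after the start, and that of Nop58 is chr1:59684756-59685055, with the STAT motif 46 bases before it. With all arrays the 10 genes with an E-box had a median difference of 0.64, and the 28 measured genes without one in the window 0.47. Against uninduced replicates 2 and 3 these medians were 1.01 and 0.64, with ranges of 0.17 to 1.31 and -0.23 to 1.35 that overlapped widely. In that fit 5 of the 10 and 11 of the 28 passed, where 3.22% of all genes passed as higher. The difference between genes with and without an E-box was not tested.

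Among the genes of RNA polymerase I and ribosomal DNA, 5 of 5 had a positive difference, with a median of 0.48. Without uninduced replicate 1, 2 passed, where 3.22% of all genes passed as higher. Polr1e encodes a subunit of the polymerase and had the smallest p of this role. Its signals were 999, 891 and 1069 on the induced arrays, 706 on uninduced replicate 1, and 462 and 538 on uninduced replicates 2 and 3. All induced arrays were above all uninduced arrays, and uninduced replicate 1 lay between. The log2 difference was 0.79 ± 0.20 (SE, adjusted p of 0.151 in limma), and 0.96 ± 0.16 without uninduced replicate 1 (adjusted p of 0.0361 in limma). Mybbp1a, a nucleolar protein that associates with the polymerase, gave signals of 8602, 7098 and 6654 in induced cells, 7922 on uninduced replicate 1, and 3661 and 3639 on the others. Here uninduced replicate 1 was within the induced range. The difference was 0.65 ± 0.34 (SE) with it and 1.02 ± 0.17 without it (adjusted p of 0.0358 in limma), a change of more than 1.5 times.

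Ubtf encodes the factor UBF, which binds ribosomal DNA. Its signals were 1748, 2075 and 1781 in induced cells, 1637 on uninduced replicate 1, and 1080 and 1343 on uninduced replicates 2 and 3. The groups did not overlap, and the difference of 0.48 ± 0.20 (SE) did not pass (adjusted p of 0.296 in limma, 0.0954 without uninduced replicate 1). The catalytic subunit genes Polr1a and Polr1b had the smallest differences of this role, 0.23 ± 0.21 and 0.37 ± 0.25 (SE), and without uninduced replicate 1 they stood at 0.40 ± 0.16 and 0.56 ± 0.23. For Polr1a the probe set matters, since other probe sets of the gene at or above the median level gave 0.70 and 1.18.

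The box C/D snoRNP genes, whose proteins carry the 2′-O-methylation machinery, had a median difference of 0.69 with 4 of 4 positive. Of the 4, 3 passed without uninduced replicate 1, against 3.22% of all genes. Nop56, a core protein, showed the division of the uninduced arrays plainly. Its signals were 9336, 7726 and 7929 in induced cells and 8361 on uninduced replicate 1, against 3111 and 3392 on uninduced replicates 2 and 3. Uninduced replicate 1 was within the induced range, and the other uninduced arrays were far below it. The difference was 0.90 ± 0.39 (SE, adjusted p of 0.304 in limma) with all arrays and 1.35 ± 0.16 without uninduced replicate 1 (adjusted p of 0.0210 in limma), a fold of 1.86 and 2.55. Nop58, its partner, gave 0.56 ± 0.31 and 0.91 ± 0.14 (SE), and uninduced replicate 1 was its highest array.

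Rrp9 binds the U3 snoRNA, which is needed for the first cuts toward 18S RNA. Its signals were 1164, 1020 and 1019 in induced cells, 801 on uninduced replicate 1, and 483 and 538 on the others. The groups did not overlap, and the difference was 0.83 ± 0.23 (SE, adjusted p of 0.160 in limma), or 1.04 ± 0.15 without uninduced replicate 1 (adjusted p of 0.0291 in limma). Fbl encodes fibrillarin, the methyltransferase of these particles. Its signals were 10811, 13222 and 10695 in induced cells, 9926 on uninduced replicate 1, and 7189 and 6765 on the others. Its groups did not overlap either, and the difference of 0.55 ± 0.21 (SE) did not pass with all arrays or without uninduced replicate 1 (adjusted p of 0.252 and 0.0621 in limma).

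The box H/ACA genes, for the pseudouridylation particles, had a median difference of 0.44 with 4 of 4 positive. Nolc1, a chaperone of snoRNPs that shuttles through the nucleolus, was the 1 of the 4 that passed without uninduced replicate 1 (3.22% of all genes). Its signals were 5516, 4752 and 4791 in induced cells, 4555 on uninduced replicate 1, and 1901 and 2062 on the others. Uninduced replicate 1 lay just under the induced arrays. The difference was 0.93 ± 0.35 (SE, adjusted p of 0.249 in limma) and 1.33 ± 0.15 without that array (adjusted p of 0.0194 in limma). Dkc1, the pseudouridine synthase dyskerin, gave signals of 10458, 9763 and 8961 in induced cells, 9868 on uninduced replicate 1, and 5496 and 6296 on the others. Its difference of 0.47 ± 0.25 (SE) became 0.72 ± 0.15 without uninduced replicate 1 and missed the threshold (adjusted p of 0.0548 in limma). Gar1 and Nhp2, which sit in the same particle, gave 0.41 ± 0.23 and 0.36 ± 0.26 (SE) with all arrays and 0.63 ± 0.13 and 0.62 ± 0.16 without uninduced replicate 1, and neither passed. Gar1 had signals of 5425, 5132 and 5327 in induced cells, 5407 on uninduced replicate 1, and 3258 and 3568 on the others, so that 4 arrays stood at 1 level and 2 at another.

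The general nucleolar proteins differed least, with a median of 0.28. Npm1, nucleophosmin, had signals of 30389, 33790 and 31104 in induced cells, 34677 on uninduced replicate 1, and 30125 and 28375 on the others. Uninduced replicate 1 was the highest of the 6 arrays and the groups overlapped. Its difference was 0.04 ± 0.16 (SE) and, without uninduced replicate 1, 0.12 ± 0.14, with adjusted p of 0.940 and 0.647 in limma. Ncl, nucleolin, gave 21560, 25069 and 23402 in induced cells, 23375 on uninduced replicate 1, and 18412 and 19312 on the others, a difference of 0.20 ± 0.17 (SE), or 0.30 ± 0.14 without uninduced replicate 1. Its other probe sets, of lower signal, gave from 0.13 to 0.72. Whether the highest probe signals are near the upper limit of the arrays was not tested.

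Gnl3, the GTPase nucleostemin, gave 6654, 5767 and 5671 in induced cells, 6234 on uninduced replicate 1, and 3165 and 3467 on the others. Uninduced replicate 1 was within the induced range. The difference was 0.55 ± 0.28 with all arrays (SE, adjusted p of 0.373 in limma) and passed without that array (0.86 ± 0.15, adjusted p of 0.0397 in limma). Ddx21, an RNA helicase, gave 4322, 3091 and 3569 in induced cells, 3388 on uninduced replicate 1, and 2315 and 2905 on the others. Its difference was 0.35 ± 0.22 (SE, adjusted p of 0.451 in limma), and its other probe set, of lower signal, gave 1.04.

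The 13 small subunit genes all had a positive difference, with a median of 0.56 and a range of 0.20 to 1.01. Without uninduced replicate 1, 6 passed, against 3.22% of all genes: Wdr43, Wdr75, Imp4, Nop14, Rrp12 and Pno1. Pno1, a late factor of 40S maturation, was the most even of the 43 within the induced group. Its signals were 3681, 3665 and 3714 in induced cells, 3011 on uninduced replicate 1, and 1443 and 1511 on the others. The groups did not overlap, and the difference was 0.97 ± 0.30 (SE, adjusted p of 0.197 in limma). Without uninduced replicate 1 it was 1.31 ± 0.13, with the smallest adjusted p of the 43 (0.0161 in limma) and a fold of 2.48.

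Rrp12, which acts in export and maturation of the subunits, had the largest difference of the 43 in either fit. Its signals were 520, 359 and 459 in induced cells, 363 on uninduced replicate 1, and 152 and 166 on the others. Uninduced replicate 1 was just above the lowest induced array. The difference was 1.01 ± 0.35 (SE, adjusted p of 0.224 in limma) with all arrays and 1.38 ± 0.20 without uninduced replicate 1 (adjusted p of 0.0301 in limma). Wdr75, a protein of the early complex that couples transcription to processing, gave 3096, 4098 and 3741 in induced cells, 2881 on uninduced replicate 1, and 1378 and 1467 on the others. Its groups did not overlap, with differences of 1.002 ± 0.315 and 1.34 ± 0.17 (SE), the second with an adjusted p of 0.0254 in limma. Utp20, a scaffold of the small subunit processome, had the largest distance of uninduced replicate 1 from the others (1.40) among the 43. It stood at 0.68 ± 0.43 (SE) with all arrays and at 1.15 ± 0.25 without uninduced replicate 1 (adjusted p of 0.0599 in limma), and it passed where both replicate 1 arrays were left out. Heatr1 and Utp18, of the same processome, stood at 0.20 ± 0.24 and 0.39 ± 0.17 (SE) with all arrays, Noc4l at 0.51 ± 0.23, Ltv1 at 0.45 ± 0.20, Tsr1 at 0.56 ± 0.32 and Nat10, the 18S RNA acetyltransferase, at 0.56 ± 0.30. Without uninduced replicate 1 Heatr1 stood at 0.42 ± 0.16, Tsr1 at 0.88 ± 0.20 and Nat10 at 0.86 ± 0.19 (SE), and none of these 3 passed. Wdr43, Imp4 and Nop14 stood at 0.64 ± 0.36, 0.66 ± 0.31 and 0.41 ± 0.33 (SE) with all arrays. Without uninduced replicate 1, where they passed, they stood at 1.05 ± 0.14, 1.01 ± 0.14 and 0.78 ± 0.14 (SE).

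Of the 13 measured large subunit genes 12 had a positive difference, with a median of 0.50. In 9 of them all induced arrays lay above all uninduced arrays, against 10.7% of all genes. Without uninduced replicate 1, 6 passed, against 3.22% of all genes: Bop1, Nop2, Rrs1, Noc2l, Noc3l and Ddx18. Uninduced replicate 1 reached the lowest induced array in 4 of the 13, against 10 of the 13 small subunit genes, a difference that was not tested. Bop1, of the complex with Pes1 and Wdr12 that processes the 28S RNA precursor, gave 1936, 1931 and 2066 in induced cells, 1439 on uninduced replicate 1, and 990 and 997 on the others. The groups did not overlap and uninduced replicate 1 lay near the midpoint. The difference was 0.81 ± 0.20 (SE, adjusted p of 0.144 in limma) with all arrays and 0.98 ± 0.13 without uninduced replicate 1 (adjusted p of 0.0255 in limma). Its partners differed less, with 0.14 ± 0.16 for Pes1 and 0.19 ± 0.16 for Wdr12 (SE), and 0.17 ± 0.16 and 0.27 ± 0.13 without uninduced replicate 1. None of these 4 values passed, and the difference between partners was not tested.

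Noc2l, a factor of pre-60S assembly, gave 1768, 1724 and 2079 in induced cells, 1396 on uninduced replicate 1, and 790 and 694 on the others. Its groups did not overlap, with differences of 1.003 ± 0.286 (SE, adjusted p of 0.173 in limma) and 1.30 ± 0.16 (adjusted p of 0.0225 in limma, without uninduced replicate 1). Ddx18, an RNA helicase, gave 3713, 3459 and 3505 in induced cells, 2877 on uninduced replicate 1, and 2148 and 2214 on the others. Its difference was 0.57 ± 0.18 (SE), and 0.70 ± 0.13 without uninduced replicate 1 (adjusted p of 0.0433 in limma). Nop2, the 28S RNA methyltransferase, stood at 0.81 ± 0.28 (SE) with all arrays, Rrs1 at 0.76 ± 0.28, Noc3l at 0.68 ± 0.38, Nop16 at 0.50 ± 0.18, Ebna1bp2 at 0.43 ± 0.15, Nip7 at 0.42 ± 0.17 and Wdr74 at 0.37 ± 0.18. Of these Noc3l moved most without uninduced replicate 1, to 1.11 ± 0.18 (SE, adjusted p of 0.0334 in limma).

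Rrp1b was the 1 gene of the set with a negative difference. Its signals were 3096, 1905 and 2039 in induced cells, 3509 on uninduced replicate 1, and 3160 and 2302 on the others. The groups overlapped, the replicate 1 array was the highest of its group in each case, and the difference was -0.36 ± 0.26 (SE, adjusted p of 0.525 in limma). The direction depends on the probe set, since its other probe sets, with mean levels of 10.33 and 9.99 against 11.35, gave 0.13 and 0.24. Over the whole set there were 41 other probe sets at or above the median level, from 29 of the genes, and 38 of them were positive, with a median of 0.54. The 3 negative ones belonged to Npm1 (-0.01), Imp4 (-0.62) and Nip7 (-0.44).

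**Figure D3:**
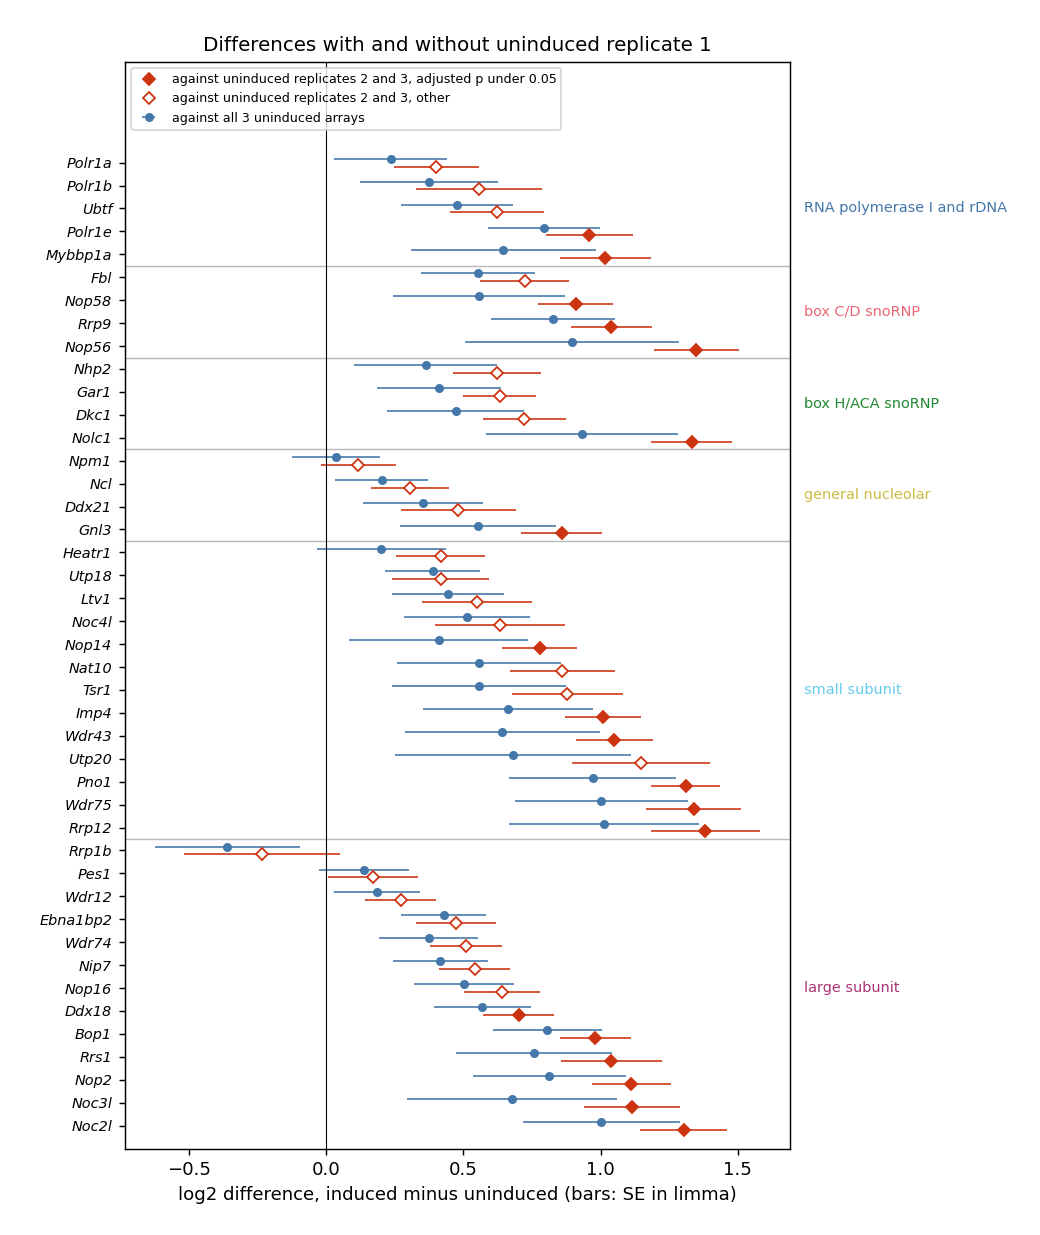
Each row is 1 of the 43 genes, and the x axis is the log2 difference, induced minus uninduced, with the SE from limma as bars. Blue circles use all 3 uninduced arrays, where 0 genes passed, and red diamonds use uninduced replicates 2 and 3, filled for the 19 that passed. The red bars are shorter for most genes, and Rrp1b alone lies left of 0.

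Other genes of the pathway were taken from lists of 121 symbols, written with earlier results of these data known. Of the 120 measured, 99 had a positive difference, where 44.1% of all genes did, and the median was 0.33. With all arrays 0 passed as higher or lower. At an unadjusted p under 0.05 in limma 31 were higher and 2 lower, against 7.14% and 10.3% of all genes. Without uninduced replicate 1, 29 passed as higher and 0 as lower, against 3.22% and 4.77% of all genes. The same shares of all genes apply to each list below. Among 42 other small subunit factors the median was 0.47 and 14 passed without that array, for example Utp6 (1.31 ± 0.15, SE), Utp25 (0.82 ± 0.12) and Wdr46 (0.70 ± 0.13). Among 42 other large subunit factors it was 0.34 and 9 passed, among them Ftsj3, a methyltransferase of pre-60S particles (1.38 ± 0.14), while Ddx24 (0.68 ± 0.17) and Nsa2 (-0.52 ± 0.13) did not pass. Among 10 snoRNP assembly factors it was 0.28 and 2 passed, Shq1 (1.11 ± 0.18) and Ruvbl1 (0.77 ± 0.13), and Znhit3 stood at 0.42 ± 0.14. Among 15 genes of the RNA exosome and its helpers it was 0.36 and 3 passed. Its nuclease gene Dis3 stood at 1.82 ± 0.13 (SE, adjusted p of 0.0133 in limma) without uninduced replicate 1, while Exosc6 (0.76 ± 0.19) and Exosc2 (0.73 ± 0.15) did not pass.

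The lists did not all have positive medians. For 11 other RNA polymerase I genes the median was -0.04, with 4 positive, and 1 passed without uninduced replicate 1 (3.22% of all genes as higher). That gene was Rrn3, which recruits the polymerase to its promoter (0.97 ± 0.13, SE, adjusted p of 0.0277 in limma), while Taf1d and Taf1b stood at -0.46 ± 0.24 and -0.34 ± 0.13. The ribosomal protein genes, the end users of this machinery, had a median of -0.03 over 45 measured of 81, with 15 positive. Of the 45, 0 passed in either direction with all arrays or without uninduced replicate 1. At an unadjusted p under 0.05 in limma 0 were higher and 1 lower, against 7.14% and 10.3% of all genes. Among the ribosomal protein genes Rpl22l1 stood at -0.48 ± 0.19, Rps6 at -0.39 ± 0.16 and Rpl37 at -0.48 ± 0.25 (SE). These genes have many near-identical copies in the genome, so their probe sets can share signal and their values are uncertain. Their median log2 value per array was 14.96 to 15.21, against 10.90 to 11.77 for the 43 genes. Whether signals that high are near the upper limit of the arrays was not tested.

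The regulator Myc gave log2 values of 12.42, 12.46 and 12.32 in induced cells, 12.23 on uninduced replicate 1, and 12.59 and 12.63 on the others. The groups overlapped, with uninduced replicate 1 the lowest array, and the difference was -0.08 ± 0.17 (SE, adjusted p of 0.847 in limma). Of the 11 genes of the MYC network 0 passed with all arrays. At an unadjusted p under 0.05 in limma 1 was higher and 4 lower, against 7.14% and 10.3% of all genes. Without uninduced replicate 1, 2 passed as lower, against 4.77% of all genes. Mxd4, which competes with MYC for its partner MAX, stood at -1.48 ± 0.20 in that fit (SE, adjusted p of 0.0282 in limma). The other that passed was Mxi1, of the same family, at -1.76 ± 0.13 (SE, adjusted p of 0.0133 in limma), named after its values were seen. Max itself stood at 0.55 ± 0.16 and Mycn at -1.25 ± 0.32 (SE), and neither passed. Mycn had a higher signal than Myc on every array, with log2 values of 13.06 to 14.91. It was lower on every induced array than on every uninduced array. With all arrays its difference was -1.02 ± 0.33 (SE, adjusted p of 0.205 in limma).

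**Figure D4:**
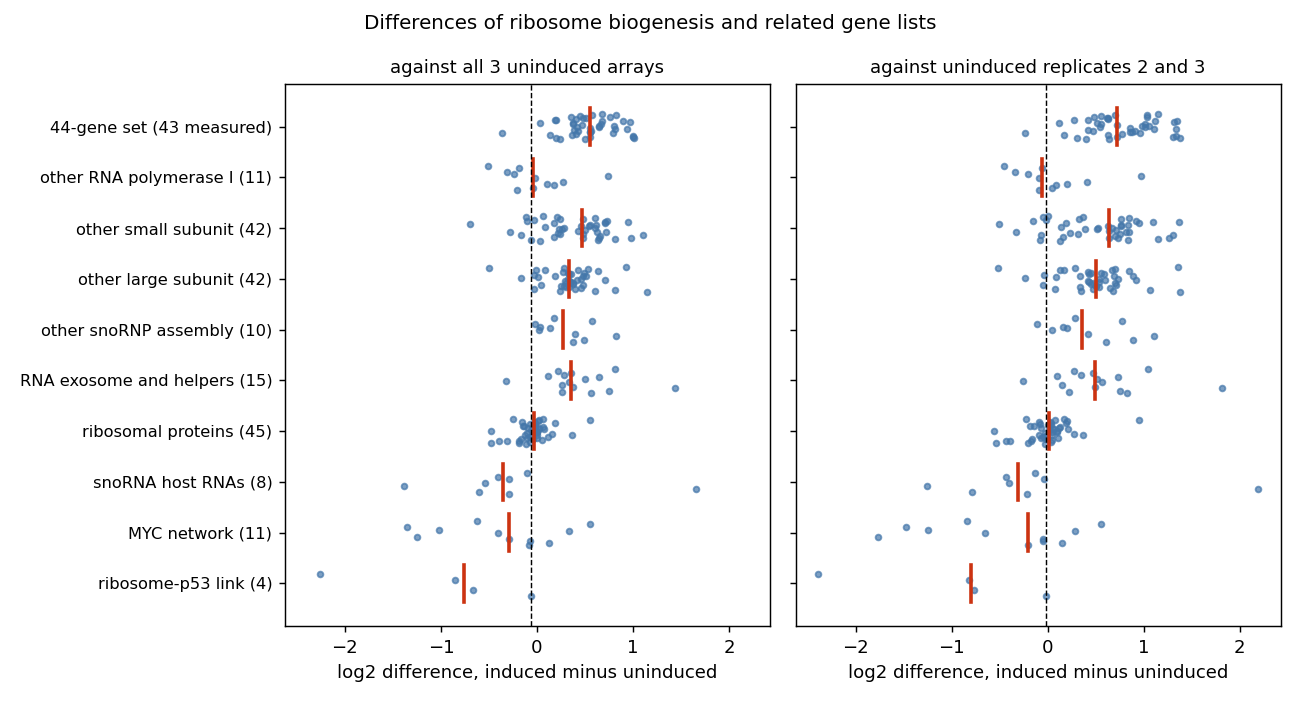
Points are genes, and the x axis is the log2 difference, induced minus uninduced, with all 3 uninduced arrays on the left and with uninduced replicates 2 and 3 on the right. Red bars are list medians and the dashed line is the median of all genes. The set of 43 has medians of 0.55 and 0.72, while those of the ribosomal protein genes, measured at much higher signals, are -0.03 and 0.02.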

How the data were processed

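Signal intensities on a linear scale, deposited by the authors, were used for 6 arrays, 3 per group, grouped by the labels' titles. The submitters' processing notes name Affymetrix Expression Console 1.4.1 but no summary method, which is therefore unknown. The deposited values show a 2% trimmed mean of 500 on every array. From them log2(signal + 16) was taken. Of 45101 probe sets, 64 controls were left out, as were probe sets with several symbols (932) or none (9160), and the brightest probe set stood for each gene. The groups were fitted with limma 3.58.1 in R 4.3.3 (lmFit and eBayes with 4 residual degrees of freedom, two-sided, Benjamini-Hochberg adjustment, threshold of 0.05), and the script was tested on simulated data. The number of arrays limits the precision. Nothing says that the triplicates were separate experiments, so the p-values rest on the spread of these cultures alone, which may be technical.

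The main fit takes the arrays as unpaired, since the labels state no block. Deviations from the group means (genes at or above the median) correlated by 0.36, 0.19 and 0.33 for arrays numbered 1, 2 and 3. Numbers 2 and 3 correlated crosswise as strongly (0.19 and 0.30), so only number 1 stood apart and a pairing by number is not established. Array values are printed for up to 3 genes of smallest p per role, genes of negative difference, Ncl, Npm1 and Fbl, and up to 3 genes of smallest p are named per other list, with Myc in addition and Mxi1 after its values were seen. The members, roles and lists were chosen with earlier results of these data known. Alternatives changed the block, scaling, filter, probe set, variance, pseudocount, threshold and arrays. Treating replicate 1 as a batch, and centring without uninduced replicate 1, were added after seeing the data. The plots were made in matplotlib 3.10.9.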

Additional observations from a re-analysis of the deposited data

How the results depend on the processing

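Over all genes 21 passed as higher and 13 as lower. These became 0 and 0 with the replicate block, with a pseudocount of 1 and at a threshold of 0.01 (3269, 2816 and 3171 genes at an unadjusted p under 0.05 in limma). They became 32 and 37 with genes at or above the 25th percentile, 323 and 419 with genes at or above the median, 237 and 313 with trended and robust variance, 120 and 132 with a pseudocount of 64, and 13 and 6 with the most variable probe set. Centring gave 6 lower, the mean of probe sets 21 lower, and replicate 1 as a batch 6 higher. Without both replicate 1 arrays they were 524 and 953, and without uninduced replicate 1 with centring 349 and 688. Leaving out 1 array gave from 0 to 586 higher and from 0 to 867 lower, the highest counts being without uninduced replicate 1.

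Of the 43 genes, 0 passed in either direction with all arrays. With genes at or above the median 2 of the 43 passed as higher, Bop1 and Polr1e, where 323 of 9097 genes did, a similar share. With trended and robust variance 1 passed, Bop1, where 237 of 18193 genes passed as higher. The count was 17 without both replicate 1 arrays, against 2.88% of all genes. It was 16 without uninduced replicate 1 with centring, all 16 among the 19, where 349 of 18193 genes passed as higher. When 1 array was left out it was from 0 to 19, the 19 against 3.22% of all genes. Genes whose groups do not overlap numbered 33 with centring, against 14.4% of all genes. They numbered up to 41 when 1 array was left out, the 41 being without uninduced replicate 1, against 21.3% of all genes. Without both replicate 1 arrays they were 41, and without uninduced replicate 1 with centring 40. The share of all genes was not taken in these last settings, and with fewer arrays groups separate more often. The replicate block left the members' count at 0. The median difference ranged from 0.38 to 0.72 over all alternatives. Of the 860 differences of single genes under an alternative, 10 changed sign, none of which passed. With the mean of probe sets these were Utp18 (-0.044), Nat10 (-0.044), Rrp1b (0.0043) and Nip7 (-0.013). With the most variable probe set they were Npm1 (-0.0072), Utp18 (-0.48), Nat10 (-0.64) and Nip7 (-0.44). With 1 array left out Npm1 ranged from -0.027 (without uninduced replicate 3) to 0.12 (without uninduced replicate 1), and it was -0.0095 without induced replicate 2. The cause was not tested.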

Other observations

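The non-coding RNAs that carry snoRNAs in their introns had a median difference of -0.35 over 8 genes, with 1 positive. Snhg3 gave log2 values of 11.17, 10.54 and 10.80 in induced cells, 10.25 on uninduced replicate 1, and 8.61 and 8.68 on the others. All induced arrays lay above the uninduced arrays, and the difference was 1.66 ± 0.47 (SE, adjusted p of 0.172 in limma), or 2.19 ± 0.22 without uninduced replicate 1 (adjusted p of 0.0169 in limma). Snhg12 stood at -1.38 ± 0.24 (SE) with all arrays lower in induced cells, and Snhg6 at -0.61 ± 0.22 (SE), and neither passed with all arrays or without uninduced replicate 1.

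Of 4 measured genes that link ribosome production to p53, Cdkn2a fell by 2.26 ± 0.24 on the log2 scale (SE, adjusted p of 0.0396 in limma). Its products include ARF, an inhibitor of MDM2 that also acts in the nucleolus. The value is for the gene, and its products were not told apart. With the replicate number as a block no gene of the arrays passed, and the smallest adjusted p was 0.198 in limma (3269 genes at an unadjusted p under 0.05). Mdm2 stood at -0.85 ± 0.14 and Nop53, a nucleolar protein, at -0.66 ± 0.17 (SE). Neither passed with all arrays, and without uninduced replicate 1 they stood at -0.82 ± 0.13 and -0.77 ± 0.14 (SE) with adjusted p of 0.0337 and 0.0454 in limma.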
